A study of Rattus norvegicus with 16 samples.

Results

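The genes described here encode the enzymes that couple reactive or foreign compounds to glutathione, sulfate or glucuronic acid, and those that oxidize aldehydes to acids. They were chosen by name alone. A transcript cluster, the group of array probes that reads one transcript, was taken if its annotation holds exactly 1 gene symbol and that symbol begins with Gsta, Gstm, Gstp, Gstt, Gsto, Gstk, Mgst, Sult, Ugt1, Ugt2 or Aldh. Of 27342 clusters, 15097 carry exactly 1 symbol, for 14324 genes, and 50 matched. Gsta4 had 2 clusters and was represented by the brighter one, which left 49 members. They are 17 glutathione S-transferases, 2 membrane-bound glutathione S-transferases, 9 sulfotransferases, 7 UDP-glucuronosyltransferases and 14 aldehyde dehydrogenases. A further 9 clusters with such a symbol beside others were left out, among them the cluster that reads the Ugt1a genes, so no Ugt1 gene is a member.

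Curcumin is a phenolic compound, and the body clears it largely by reduction followed by coupling to glucuronic acid or sulfate, mainly in intestine and liver. Glutathione S-transferases join the tripeptide glutathione to electrophiles, among them the aldehydes that form when membrane lipids are oxidized, and aldehyde dehydrogenases convert such aldehydes, and aldehydes of ordinary metabolism, to acids. In the brain these enzymes are best known from astrocytes, oligodendrocytes, the vessel wall and the choroid plexus, besides neurons.

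The arrays held brain RNA of male Sprague-Dawley rats that were 15 months old when the study began. Rats ate curcumin-containing chow or standard chow for 12 weeks or for 6 weeks, and hippocampus and cortex were taken at the end, which gives 8 groups: hippocampus and cortex of rats on curcumin for 12 weeks, of control rats at 12 weeks, of rats on curcumin for 6 weeks and of control rats at 6 weeks. Each group had 6 rats and 2 arrays, and each array held tissue pooled from 3 rats, so there are 16 arrays and the unit is the pool. Both tissues came from the same rats, and it is not stated whether a hippocampal and a cortical pool with the same number held the same 3 rats. Every rat was aged, and no young rat was measured. The methods also describe BrdU injections, a label of dividing cells, for rats on both diets near the end of feeding, and it is not stated whether the rats used for arrays had received it.

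The deposited values are normalized intensities on the log2 scale, from 4.33 to 12.87, with array medians between 6.35 and 6.44. A difference of 1 is a doubling on this scale. How bright a cluster is depends on its probes, so levels are compared between samples and not between genes. The 2 arrays of a group correlated at 0.990 to 0.996 over all clusters. The labels name them biological replicates, but the design text can also be read as 2 hybridisations of the same RNA, so p-values may measure technical spread only. Prox1, a marker of dentate granule cells, lay at 7.31 to 8.07 in hippocampal arrays and at 5.71 to 6.81 in cortical arrays, and C1ql2 of the same cells did not overlap between the tissues either. The second cortical control array at 6 weeks stood apart. Its mean over 6 olfactory bulb markers was 8.35, against 6.88 to 7.21 on the other cortical arrays, and its meningeal fibroblast, red blood cell and microglial marker means were the highest of the 8 cortical arrays, at 7.30, 7.41 and 7.66. Choroid plexus markers averaged 7.95 on the second curcumin array and 8.48 on the second control array of hippocampus at 6 weeks, against 5.84 and 6.44 on the first ones.

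Of the 49 members 24 had a mean over the 16 arrays above the median of all clusters. The clusters of Gstm1, Gsta1, Gsto1, Gstm5, Gstm7, Aldh5a1, Gstp1, Aldh6a1, Aldh3a2 and Aldh2 had the 10 highest means, between 8.02 and 10.01, which describes these probes and is no order of expression. Gstm1, a mu class transferase, kept between 9.71 and 10.24 on all 16 arrays. At the other end, all 7 Ugt2 members, 5 sulfotransferases (Sult1b1, Sult1c2, Sult1c3, Sult2a1 and Sult6b1) and the alpha class gene Gsta3 had means at percentiles 3.5 to 13.9 of all clusters. Ugt2b1 ranged from 4.52 to 4.74 and Sult1b1 from 4.52 to 4.61, so these enzymes, best known from liver, gave values near the bottom of the scale on every array. The arrays cannot separate low expression from none at that brightness. The sulfotransferases with clearly brighter clusters were Sult1a1, which sulfates simple phenols, Sult1d1, Sult2b1, which sulfates sterols, and Sult5a1.

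Some members are close copies of each other. All 8 Gstm members (Gstm1, Gstm2, Gstm3, Gstm4, Gstm5, Gstm6, Gstm6l and Gstm7) lie side by side on chromosome 2, and the 7 Ugt2 members lie together with Sult1b1 and Sult1d1 on chromosome 14 in the RefSeq annotation of assembly GRCr8. Gsta1 and Gsta3 neighbour each other on chromosome 9, and RefSeq lists overlapping older names for them. Probes of one such gene may also bind the transcript of its neighbour, so a value is that of the cluster annotated with the gene.

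Transcription of several glutathione S-transferases is known to respond to Nrf2 (gene Nfe2l2), which binds antioxidant response elements, and to the aryl hydrocarbon receptor, which binds xenobiotic response elements. The core letters of the first, TGACNNNGC, and of the second, GCGTG, were searched on both strands of the RefSeq promoters, 250 bases before to 50 bases after each start site. The first was found in 8 of the 40 members with a promoter of full length (20%) and in 12.1% of all 33469 such promoters. The second was found in 9 of 40 (22.5%) and in 29.7% of all. A match is a description of letters and not of a working site. The windows of the glutathione S-transferases with the first core are shown because Gsta1, Gstp1, Gstm5 and Gstm7 are described in the comparisons below, and Gsta3 as the neighbour of Gsta1. Each is given 5′ to 3′ on the strand of its gene in assembly GRCr8, with the core in capitals.
Gsta1, chr9:31216483-31216522, minus strand: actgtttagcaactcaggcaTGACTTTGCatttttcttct
Gsta3, chr9:31154952-31155000, plus strand: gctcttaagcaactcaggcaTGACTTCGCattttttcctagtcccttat
Gstp1, chr1:210769738-210769786, minus strand: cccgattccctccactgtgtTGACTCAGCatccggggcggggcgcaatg
Gstm5, chr2:198219636-198219684, plus strand: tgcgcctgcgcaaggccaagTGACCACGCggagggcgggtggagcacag
Gstm5, chr2:198219696-198219744, plus strand: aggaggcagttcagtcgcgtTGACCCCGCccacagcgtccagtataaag
Gstm7, chr2:198260305-198260353, minus strand: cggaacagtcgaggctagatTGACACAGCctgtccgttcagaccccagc
The other members with this core were Aldh16a1, Aldh1a2 and Aldh9a1. The Gsta1 and Gsta3 windows share the letters that lead up to the core.

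The comparison of curcumin with control asks whether the enzymes that handle curcumin-like compounds differed with the diet. After 12 weeks in the cortex, 2 aldehyde dehydrogenases were called lower with curcumin than in control: Aldh6a1 and Aldh3a2. No other member passed in any of the 4 comparisons of curcumin with control. All 16 arrays were fitted together with limma, p-values were adjusted over all 27342 clusters by Benjamini-Hochberg in each comparison, and a gene is called when its adjusted p is under 0.05.

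Aldh6a1, the mitochondrial methylmalonate-semialdehyde dehydrogenase of valine breakdown, read 7.95 and 8.29 in cortex after 12 weeks of curcumin, against 8.73 and 8.64 in control cortex. Both curcumin arrays lay below both control arrays, and below the other 14 arrays of the series, which lay between 8.41 and 8.73. The difference was -0.57 (SE 0.10), or 0.676 of the control level, with an adjusted p of 0.0174 in limma. In hippocampus at 12 weeks it read 8.69 and 8.57 with curcumin, against 8.70 and 8.69 in control. The difference of the 2 curcumin effects, hippocampus minus cortex at 12 weeks, was 0.50 (SE 0.15, limma adjusted p = 0.209) and did not pass.

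Aldh3a2, the fatty aldehyde dehydrogenase of the endoplasmic reticulum, which oxidizes long-chain aldehydes from membrane lipids, read 7.89 and 7.97 with curcumin, against 8.33 and 8.20 in control cortex at 12 weeks. The curcumin arrays were the 2 lowest of the 16. The difference was -0.34 (SE 0.08), 0.792 of control, with an adjusted p of 0.0442 in limma. This call sat close to the threshold: the adjusted p was 0.0565 with a block for replicate number and ranged from 0.0103 to 0.319 over the alternatives, above 0.05 without any one of the 4 cortical arrays of 12 weeks. The Aldh6a1 call was also lost without the first curcumin array (difference -0.39), the first control array (-0.52) or the second control array (-0.61). On the 8 cortical arrays alone neither gene was called (limma adjusted p = 0.125 for Aldh6a1 and 0.163 for Aldh3a2). Of 25 alternatives, 4 lost the Aldh6a1 call and 16 the Aldh3a2 call, some of the latter by leaving out a hippocampal array.

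**Figure D1:**
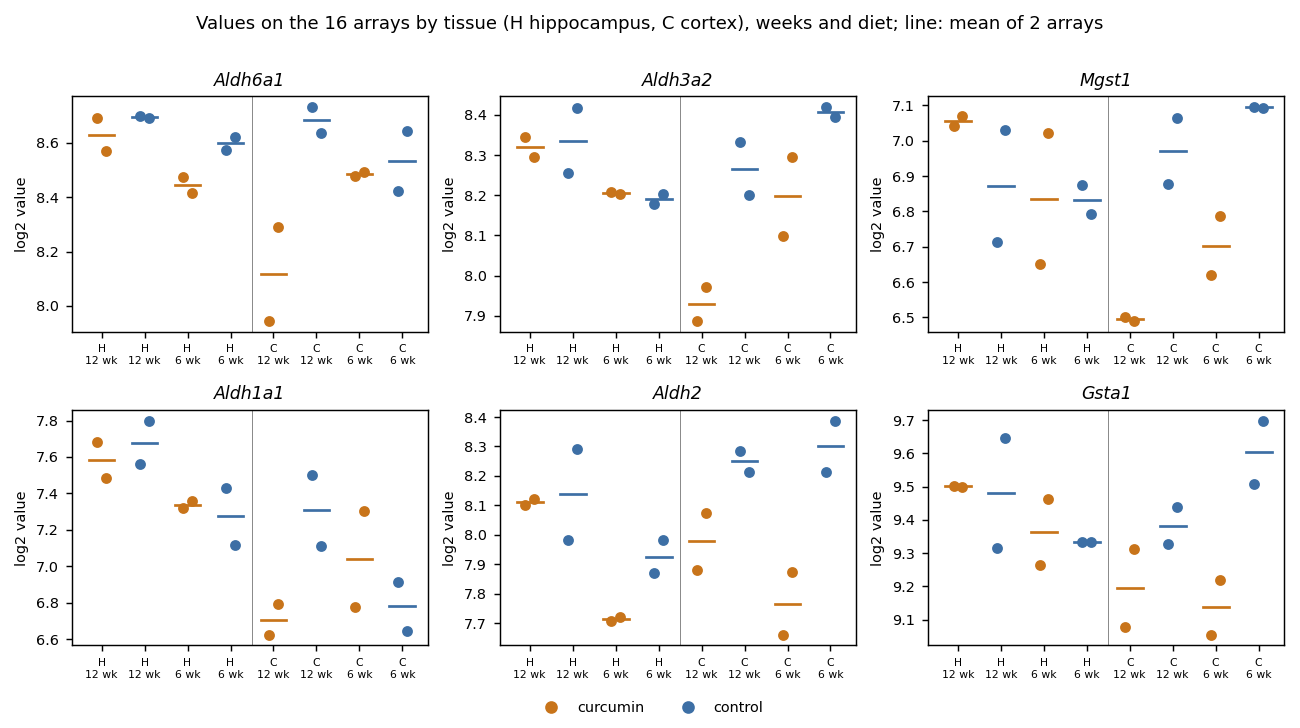
Log2 values (vertical axes, each panel with its own range) of 6 members on all 16 arrays, by tissue (H hippocampus, C cortex), weeks and diet, curcumin left of control; points are arrays and lines the mean of 2 arrays. In cortex at 12 weeks Aldh6a1 read 7.95 and 8.29 with curcumin against 8.73 and 8.64 in control, while Aldh2 and Gsta1 differed most in cortex at 6 weeks.

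The 2 members called are 4.08% of the 49, and 3.24% of all clusters were called in cortex at 12 weeks, so the share called among these enzymes was near that of the whole array. At an unadjusted p under 0.05 the shares were 16.3% of members and 15.1% of all clusters. The median difference of the members was -0.02, 29 of 49 were below 0 (59.2%, against 49.8% of all clusters), and the range ran from -0.60 to 0.33. The curcumin arrays lay wholly above or below the control arrays for 18 members, 13 of them lower, and this was so for 44.3% of all clusters.

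Other members of the same comparison did not pass. Mgst1, the microsomal transferase that also reduces lipid hydroperoxides, read 6.50 and 6.49 with curcumin, against 6.88 and 7.06 in control, a difference of -0.48 (SE 0.13, limma adjusted p = 0.0708). The 2 curcumin values were the lowest of the series for Mgst1, and it passed in 6 of 25 alternatives, for example with quantile normalization at an adjusted p of 0.0477. Aldh1a1, which makes retinoic acid from retinaldehyde, read 6.62 and 6.79 with curcumin, against 7.50 and 7.11 in control (-0.60, SE 0.19, limma adjusted p = 0.117). At 0.659 of control it was the sole member past the rule of the study, a ratio of at least 1.5 or at most 0.66 with no test, which 0.827% of all clusters passed, and it missed that rule without the first curcumin or the first control array. Gsto1, an omega class transferase that reduces dehydroascorbate, read 8.99 and 9.05 with curcumin, against 9.23 and 9.34 in control (-0.27, SE 0.08, adjusted p = 0.114). Gstm5 read 8.61 and 9.03 with curcumin, against 9.31 and 9.13 in control (-0.40, SE 0.15, adjusted p = 0.210), and stood at -0.19 without the first curcumin array. Gstm6 was the member with the highest positive value, at 5.26 and 5.50 with curcumin, against 5.07 and 5.02 in control (0.33, SE 0.12, adjusted p = 0.173), and stood at 0.21 without the second curcumin array.

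Cell type markers moved in the same arrays. All 11 measured astrocyte markers were below 0 in cortex at 12 weeks (median -0.20), and Mlc1 was called lower. The astrocyte list mean was 9.30 and 9.62 with curcumin, against 9.63 and 9.70 in control, and 9.30 was the lowest of the series. Of 9 endothelial markers 8 were below 0 (median -0.21), and of 13 oligodendrocyte markers 12 (median -0.16). In pooled tissue fewer cells of a type and less RNA per cell cannot be told apart, and the part of these markers in the Aldh6a1 and Aldh3a2 values was not tested.

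After 6 weeks in the cortex no member passed in limma, and 0.106% of all clusters did. At an unadjusted p under 0.05 there were 11 members, 22.4% of the 49, and 12.0% of all clusters. The values leaned to one side: 33 of 49 were below 0 (67.3%, against 49.4% of all clusters), with a median of -0.05 and a range from -0.53 to 0.34. This count includes the dim members, and the Ugt2 differences lay between -0.08 and 0.05. How many of the 49 stayed below 0 without the second control array, which stood apart, was not counted. Differences were below 0 for both membrane-bound transferases, 11 of the 17 glutathione S-transferases, 7 of the 9 sulfotransferases, 6 of the 7 Ugt2 members and 7 of the 14 aldehyde dehydrogenases. The arrays of the diets did not overlap for 20 members, 16 of them lower, and for 36.3% of all clusters. No member passed the rule of 1.5-fold, which 1.25% of all clusters did.

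Aldh2, the mitochondrial enzyme that clears acetaldehyde and lipid-derived aldehydes, had the lowest adjusted p of these members. It read 7.66 and 7.87 with curcumin, against 8.21 and 8.39 in control cortex at 6 weeks, a difference of -0.53 (SE 0.11, 0.691 of control, limma adjusted p = 0.0948). In hippocampus at 6 weeks it read 7.71 and 7.72 with curcumin, against 7.87 and 7.98 in control (-0.21, SE 0.11, adjusted p = 1.0). Without the first control array of cortex at 6 weeks the Aldh2 difference was -0.62. That value rests on the second control array alone, the one that stood apart. Its difference was below 0 in all 4 comparisons, at -0.27 in cortex and -0.02 in hippocampus at 12 weeks, though these were -0.17 without the first curcumin array of cortex and 0.13 without the second control array of hippocampus, and the mean of the 4 effects was -0.26 (SE 0.06, limma adjusted p = 0.151).

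Gsta1, an alpha class transferase, read 9.05 and 9.22 with curcumin, against 9.51 and 9.70 in control cortex at 6 weeks (-0.47, SE 0.12, limma adjusted p = 0.155). Gsta4, the alpha class enzyme best known for coupling glutathione to 4-hydroxynonenal, read 7.0 and 7.15 with curcumin, against 7.48 and 7.66 in control (-0.50, SE 0.16, adjusted p = 0.237), and its dimmer second cluster had a difference of -0.24. Mgst1 read 6.62 and 6.79 with curcumin, against 7.10 and 7.09 in control (-0.39, SE 0.13, adjusted p = 0.239). In each of these 3 genes both curcumin arrays lay below both control arrays, and none of the 3 passed. Aldh3a2, called at 12 weeks, was at -0.21 here (SE 0.08, adjusted p = 0.309), or -0.11 without the first curcumin array, and Aldh6a1 was at -0.05, or 0.06 without the second control array.

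Some values of this comparison rested on the control array that stood apart. Sult1a1 read 7.95 and 7.59 with curcumin, against 7.56 and 8.82 in control, and 8.82 was its highest value on any array. Its difference of -0.42 (SE 0.35, limma adjusted p = 0.740) became 0.21 without that array. Mgst2, which also makes leukotriene C4, read 5.62 and 5.72 with curcumin, against 5.87 and 6.32 in control (-0.43, SE 0.13, adjusted p = 0.224), and stood at -0.20 without it. Sult2b1, the one sulfotransferase with a difference above 0.05 here, read 6.82 and 6.90 with curcumin, against 6.69 and 6.35 in control (0.34, SE 0.11, adjusted p = 0.246), and stood at 0.17 without it. Aldh2 and Gsta1 kept -0.45 and -0.37 without it.

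Markers moved here as well. All 13 oligodendrocyte and myelin markers were below 0 (median -0.80), as were all 12 microglial markers (median -0.38) and all 6 olfactory bulb markers (median -0.78), while 9 of 11 neuronal markers were above 0 (median 0.29), with Slc17a7 called higher. The oligodendrocyte list mean was 8.12 and 8.92 with curcumin, against 9.46 and 9.05 in control, so that 8.12, on the first curcumin array, was the lowest of the series and 9.46 the highest. Gsta1 and Aldh2 were also at their lowest on that curcumin array. Whether the member values follow the myelin content of the pools was not tested.

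In the hippocampus no member passed at either duration. At 12 weeks 0.00366% of all clusters were called in limma, and 2 members (4.08%) had an unadjusted p under 0.05, against 5.11% of all clusters. Gstk1, a kappa class transferase of mitochondria and peroxisomes, read 7.45 and 7.41 with curcumin, against 7.69 and 7.82 in control (-0.32, SE 0.10, limma adjusted p = 0.766). Gstm6 read 5.80 and 5.91 with curcumin, against 6.03 and 6.33 in control (-0.33, SE 0.12, adjusted p = 0.894), and stood at -0.18 without the second control array. In both genes the arrays of the diets did not overlap. The median over the members was -0.01, with 28 of 49 below 0 (57.1%, against 50.2% of all clusters), and 15 members had arrays apart (10 lower), against 27.4% of all clusters. No member passed the rule of 1.5-fold, which 0.230% of all clusters did.

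At 6 weeks in hippocampus 0% of all clusters were called in limma, and 0 members and 2.03% of all clusters had an unadjusted p under 0.05. The members lay between -0.21 for Aldh2 and 0.24 for Aldh1a2, which was 0.10 without the first curcumin array, with a median of 0.00 and 23 of 49 below 0 (46.9%, against 51.1% of all clusters). For 14 members (8 lower) and 35.0% of all clusters the arrays were apart, and 0 members and 0.121% of clusters passed the rule of 1.5-fold. Hippocampus at 6 weeks had the narrowest range of member values among the 4 comparisons of curcumin with control.

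**Figure D2:**
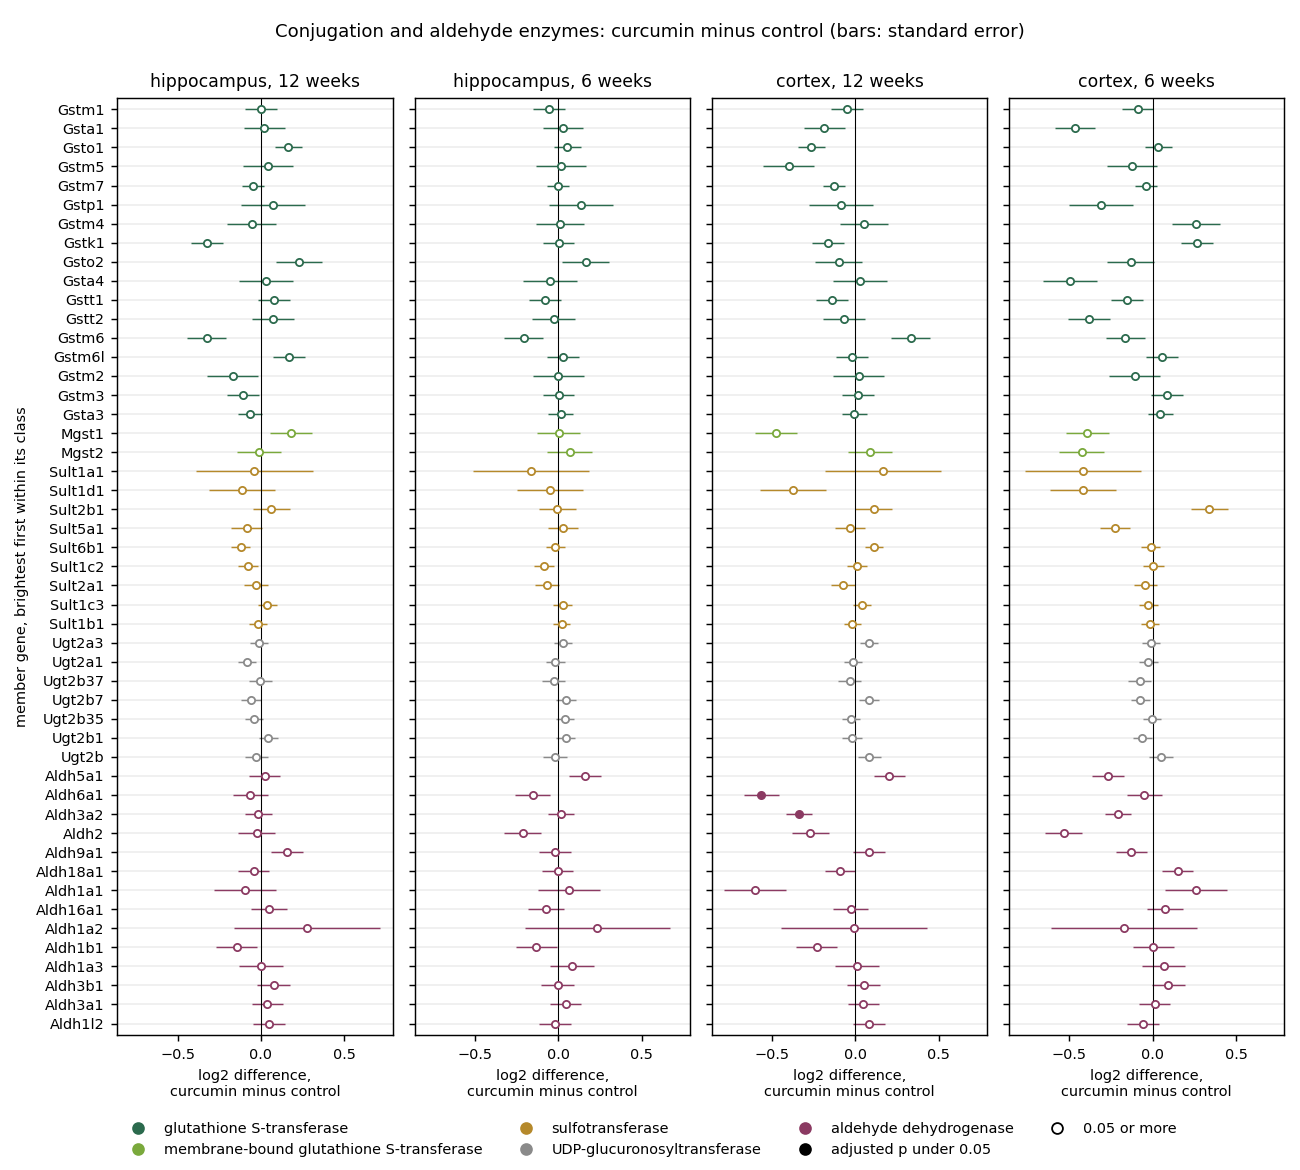
Difference of mean log2 values, curcumin minus control (horizontal axis), with its standard error, for the 49 members (vertical axis) in each tissue and duration, 2 arrays per group; colours mark the enzyme class and filled points the members with an adjusted p under 0.05. The filled points are Aldh6a1 and Aldh3a2 in cortex at 12 weeks, and values in hippocampus at 6 weeks lie between -0.21 and 0.24.

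The dim Ugt2 members differed little in any comparison of curcumin with control. Their differences ran from -0.08 to 0.08 over the 4 comparisons, and the largest moderated t belonged to Ugt2a1 in hippocampus at 12 weeks (-0.08, SE 0.06, limma adjusted p = 1.0). Gstp1, the pi class transferase, was variable between pools. Its 2 curcumin arrays in cortex at 6 weeks read 8.12 and 8.79, against 8.79 and 8.74 in control (-0.31, SE 0.19, adjusted p = 0.588), and the difference was 0.03 without the first curcumin array. Aldh5a1, which oxidizes succinic semialdehyde in the breakdown of GABA, read 8.47 and 8.64 with curcumin, against 8.78 and 8.86 in control cortex at 6 weeks (-0.27, SE 0.10), but 8.66 and 8.98, against 8.57 and 8.67, at 12 weeks (0.20, SE 0.10, or 0.05 without the second curcumin array).

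Whether the effect of curcumin differed between durations or tissues was tested directly, and no member passed. In cortex the effect at 12 minus that at 6 weeks was called for 1.47% of all clusters and for 0 members in limma, with 8 members (16.3%) at an unadjusted p under 0.05, against 14.7% of all clusters. They included Aldh5a1 (0.47, SE 0.13, adjusted p = 0.115), Aldh6a1 (-0.52, SE 0.15, adjusted p = 0.115) and Aldh1a1 (-0.86, SE 0.26, adjusted p = 0.136). In hippocampus 0% of clusters passed, and 1 member (2.04%), Gstk1, had an unadjusted p under 0.05, against 3.43% of all clusters. For the effect in hippocampus minus that in cortex, 0.190% of clusters and 0 members passed at 12 weeks, with 6 members (12.2%) at an unadjusted p under 0.05, against 10.6% of all clusters. Among them were Gstm6 (-0.66, SE 0.16, adjusted p = 0.141) and Mgst1 (0.66, SE 0.18, adjusted p = 0.170). At 6 weeks 0% of clusters and 0 members passed, with 4 members (8.16%) at an unadjusted p under 0.05, against 5.48% of all clusters. The mean of the 4 effects was called for 0.0146% of clusters and 0 members, with 7 members (14.3%) at an unadjusted p under 0.05, against 9.06% of all clusters, and 32 of 49 members had a mean below 0 (65.3%, against 50.1% of all clusters).

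The genes that feed and serve these enzymes were taken as 7 lists. In cortex at 12 weeks 4 of their 79 measured genes were called (5.06%, against 3.24% of all clusters), each lower with curcumin: Ugp2, which makes UDP-glucose on the way to the glucuronate donor (-0.50, SE 0.10, limma adjusted p = 0.0230), Akr1a1, an aldehyde reductase (-0.31, SE 0.06, adjusted p = 0.0176), Hpgds, a prostaglandin D synthase of the sigma class of glutathione S-transferases (-0.42, SE 0.10, adjusted p = 0.0389), and Hnmt, which methylates histamine (-0.53, SE 0.13, adjusted p = 0.0470). They are 1 of 6 genes of glucuronate supply, 1 of 18 carbonyl and quinone reductases and 2 of 9 other conjugating and hydrolysing enzymes. No gene of glutathione supply (11 measured), sulfate supply (10), conjugate export (8) or the regulators of conjugation genes (17) was called there. No gene of the 7 lists was called in the other 3 comparisons of curcumin with control. The regulator with the largest moderated t was Nfe2l2 in cortex at 6 weeks (-0.49, SE 0.16, limma adjusted p = 0.254), and it was not called. None of the 8 members with the antioxidant core in their promoter was called in a comparison of curcumin with control.

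Between the tissues, 7 members were called over 8 hippocampal and 8 cortical arrays. They are 14.3% of the members, against 9.67% of all clusters. Gstm6, Aldh1a1, Gstm7, Gstk1, Gstm1 and Sult5a1 were higher in hippocampus, and Aldh1a2 was lower. Of the 17 glutathione S-transferases 13 had a difference above 0, 4 of them called, and 13670 of all 27342 clusters had one above 0. With a random block for tissue pools of the same group and number, the same 7 members were called.

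Gstm6 was the member that separated the tissues. It lay between 5.57 and 6.33 in hippocampus (median 5.85), against 5.02 to 5.50 in cortex (median 5.28), with no overlap on any array. The difference was 0.61 (SE 0.06, limma adjusted p = 7.1e-05). The mean of Gstm6 over the 16 arrays stood at percentile 31.4 of all clusters. How many of all clusters had no overlap between the tissues was not counted. Aldh1a1 lay between 7.12 and 7.80 in hippocampus and between 6.62 and 7.50 in cortex (0.51, SE 0.09, adjusted p = 0.00503), with overlapping arrays. The other 4 that were higher differed by less: Gstm7 by 0.30 (SE 0.03, adjusted p = 1.83e-04), Gstk1 by 0.24 (adjusted p = 0.00833), Gstm1 by 0.22 (adjusted p = 0.0135) and Sult5a1 by 0.20 (adjusted p = 0.0179, or 0.0529 without the second control array of hippocampus at 6 weeks).

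Aldh1a2, the retinoic acid synthesizing enzyme known from meninges, had the largest tissue difference and the largest spread. It lay between 5.47 and 6.10 in hippocampus, against 5.96 to 7.58 in cortex, a difference of -0.84 (SE 0.22, limma adjusted p = 0.0331). The adjusted p rose above 0.05 in 11 of 24 alternatives, up to 0.0815. Its 4 highest cortical values, 7.58, 7.10, 6.90 and 6.80, came from 4 different groups: the second control array at 6 weeks, the first control array at 12 weeks, the second curcumin array at 6 weeks and the second curcumin array at 12 weeks. Meningeal fibroblast markers were highest on 3 of these, with list means of 7.30, 7.20 and 6.94, and at 6.59 on the second curcumin array at 6 weeks. In hippocampus, where Aldh1a2 was low, the list mean was 6.25 to 6.69, against 6.37 to 7.30 in cortex. Of the 11 meningeal markers, 9 had a hippocampus minus cortex difference below 0 and 2 had one above 0. The median was -0.44 and the range ran from -0.96 to 0.47. The 4 markers called (Col1a2, Slc6a13, Slc22a6 and Ogn) were all lower in hippocampus. How much membrane each dissection carried was not measured.

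**Figure D3:**
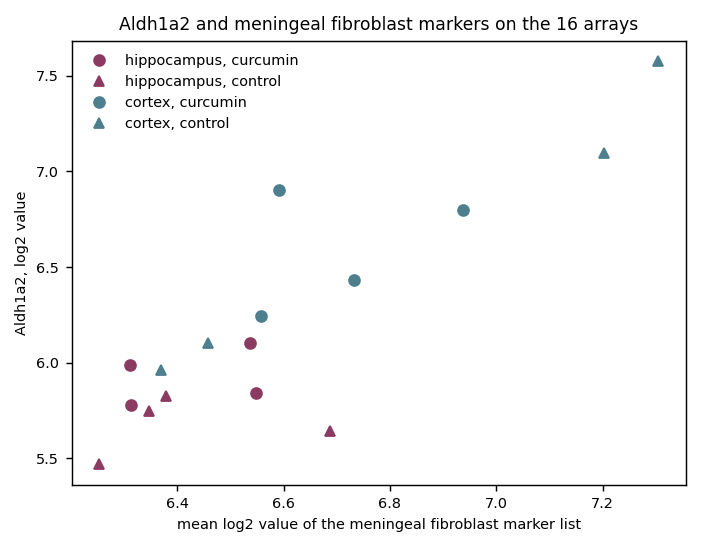
Log2 value of Aldh1a2 (vertical axis) against the mean log2 value of 11 meningeal fibroblast markers (horizontal axis) on 16 arrays, coloured by tissue, with circles for curcumin and triangles for control. The array highest on both axes, at 7.30 and 7.58, is the second control array of cortex at 6 weeks.

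**Figure D4:**
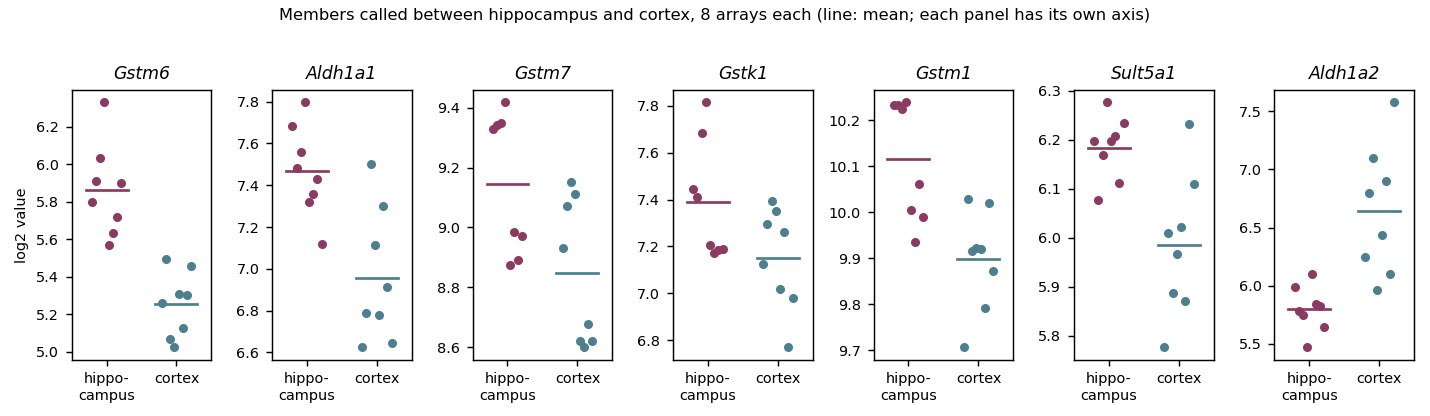
Log2 values (vertical axes, each panel with its own range) of the 7 members called between tissues, 8 hippocampal arrays left of 8 cortical arrays, with the mean as a line. In Gstm6 alone of these the tissues do not overlap, with 5.57 to 6.33 in hippocampus against 5.02 to 5.50 in cortex.

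Astrocytes are known to carry much of the glutathione S-transferase of the brain. Of 11 astrocyte markers 5 (Gfap, Aqp4, Slc1a2, Gja1 and Mlc1) were called higher in hippocampus, with a list median of 0.13. Over the 16 arrays the astrocyte list mean correlated with Gstm1 at 0.69, Gstm6 at 0.58, Gstm7 at 0.27 and Gstk1 at 0.25. In the same order these were 0.58, 0.15, -0.29 and -0.26 over the 8 cortical arrays. Over the 8 hippocampal arrays they were 0.60, 0.61, 0.67 and 0.63. The part of astrocyte content in the values of these members was not tested. Among the 79 serving genes, 8 were called higher in hippocampus and 1 lower, together 11.4%, against 9.67% of all clusters. Abcb1b, an efflux pump, was higher by 0.73, Ephx1, the microsomal epoxide hydrolase, by 0.35, Ppara by 0.33, Glo1, which detoxifies methylglyoxal, by 0.33, Cbr4 by 0.30 and Esd by 0.24, with Ggt7 and Slc3a2 of the glutathione supply also called. The pump Abcc3 was lower by a difference of -0.12.

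More members were called between durations than between diets. The shares of all clusters called were 2.27% to 8.85% between durations and 0% to 3.24% between diets. In rats on control chow, Gstm7, Gstk1 and Gstm4 were higher at 12 than at 6 weeks in both tissues, and no other member was called. They are 6.12% of the members in each tissue, against 4.27% of all clusters in hippocampus and 8.85% in cortex, so the share called was not unusual for the array. Rats at 12 weeks were also 6 weeks older, and any difference in when the arrays were processed cannot be told apart from duration.

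Gstm7, a bright mu class gene with little spread, read 9.35 and 9.42 in control hippocampus at 12 weeks, against 8.89 and 8.97 at 6 weeks (0.45, SE 0.07, limma adjusted p = 0.00697). In control cortex it read 9.15 and 9.11 at 12 weeks, against 8.68 and 8.62 at 6 weeks (0.48, SE 0.07, adjusted p = 0.00291). Rats on curcumin, compared in the same way after the control result was seen, gave 9.33 and 9.34 in hippocampus at 12 weeks, against 8.87 and 8.98 at 6 weeks (0.41, adjusted p = 0.0141), and 8.93 and 9.07 in cortex, against 8.62 and 8.60 (0.39, adjusted p = 0.0109). In each of these 4 settings both 12-week arrays lay above both 6-week arrays. How many of all clusters were apart between durations was not counted. Between diets, arrays were apart in either direction for 27.4% to 44.3% of all clusters. Leaving out 1 array of a setting ended the Gstm7 call in control hippocampus for the second 12-week or the first 6-week array, in curcumin hippocampus for any of its 4 arrays, and in curcumin cortex for the second array of either duration. On the 8 cortical arrays alone the Gstm7 call ended in curcumin cortex (limma adjusted p = 0.0872). In control cortex no alternative ended it. Gstm7 was the 1 member (2.04%) called on curcumin chow in each tissue, where 2.27% of all clusters were called in hippocampus and 3.24% in cortex.

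Gstm4, another gene of the mu class cluster but not adjacent to Gstm7, read 7.94 and 8.49 in control hippocampus at 12 weeks, against 7.56 and 7.65 at 6 weeks (0.61, SE 0.15, limma adjusted p = 0.0411). In control cortex it read 7.96 and 8.04, against 7.37 and 7.46 (0.59, SE 0.15, adjusted p = 0.0303). On curcumin the difference was 0.54 in hippocampus (adjusted p = 0.0854) and 0.38 in cortex (adjusted p = 0.223). Without the second control array of hippocampus at 12 weeks the difference there was 0.33 (adjusted p = 0.173). In control cortex the call was lost without any one of its 4 arrays, and in control hippocampus also without either 6-week array. The call in control hippocampus was lost in 10 of 25 alternatives. Among them were the 8 hippocampal arrays alone (limma adjusted p = 0.0843) and leaving out single arrays of other groups.

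Gstk1 read 7.69 and 7.82 in control hippocampus at 12 weeks, against 7.18 and 7.19 at 6 weeks (0.56, SE 0.10, limma adjusted p = 0.0117). In control cortex it read 7.39 and 7.35, against 6.77 and 6.98 (0.50, SE 0.10, adjusted p = 0.0105). The call was lost in hippocampus without either 6-week array or the second 12-week array, and in cortex without the first 12-week array. In cortex it was also lost on the 8 cortical arrays alone (limma adjusted p = 0.0737). On curcumin it read 7.45 and 7.41 in hippocampus at 12 weeks, against 7.21 and 7.17 at 6 weeks (0.24, adjusted p = 0.248), and 7.13 and 7.29 in cortex, against 7.02 and 7.26 (0.07). The arrays of the durations overlapped in curcumin cortex only. The difference between the diets in this change did not pass, at -0.43 in cortex (SE 0.13, adjusted p = 0.146) and -0.32 in hippocampus (SE 0.13, adjusted p = 1.0).

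**Figure D5:**
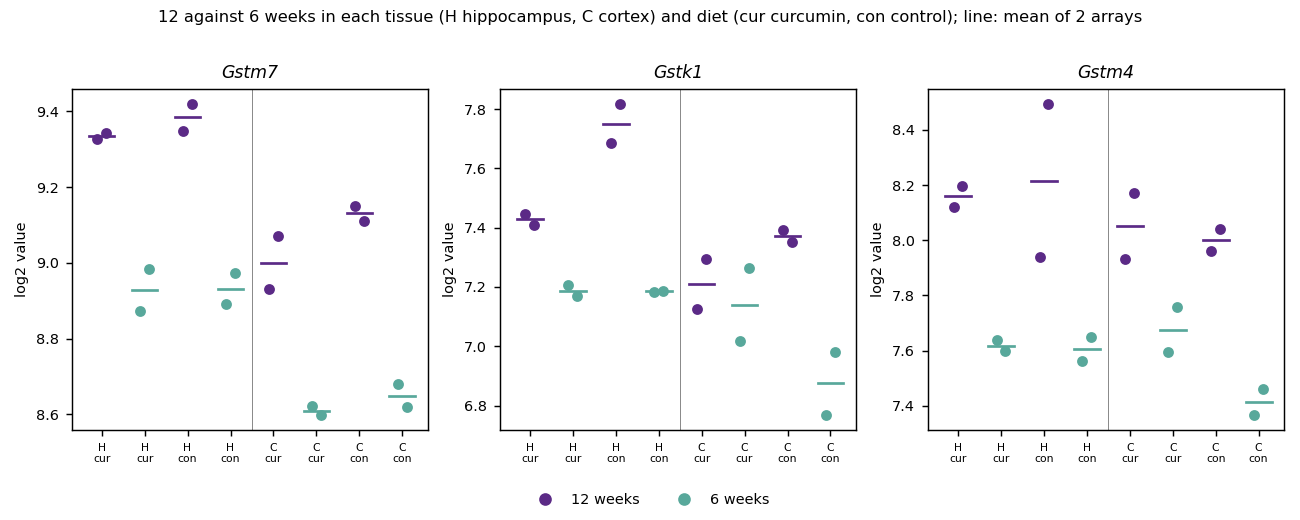
Log2 values (vertical axes, each panel with its own range) of Gstm7, Gstk1 and Gstm4 by tissue (H hippocampus, C cortex) and diet (cur curcumin, con control), 12 weeks left of 6 weeks; points are arrays and lines the mean of 2 arrays. Gstm7 is higher on both 12-week arrays in all 4 settings, while Gstk1 overlaps between durations in cortex on curcumin.

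The promoters of these 3 genes are shown whole because all 3 were called higher at 12 weeks in both tissues of control rats. They are RefSeq sequences of assembly GRCr8, 5′ to 3′ on the strand of the gene, with both cores searched above in capitals.
Gstm7, chr2:198260270-198260569, minus strand: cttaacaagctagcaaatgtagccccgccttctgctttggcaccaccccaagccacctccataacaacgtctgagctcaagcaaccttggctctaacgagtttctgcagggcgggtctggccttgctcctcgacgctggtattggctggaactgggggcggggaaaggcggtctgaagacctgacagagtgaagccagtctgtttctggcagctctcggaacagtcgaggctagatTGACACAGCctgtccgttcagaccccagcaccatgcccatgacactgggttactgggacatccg
Gstm4, chr2:198373334-198373633, minus strand: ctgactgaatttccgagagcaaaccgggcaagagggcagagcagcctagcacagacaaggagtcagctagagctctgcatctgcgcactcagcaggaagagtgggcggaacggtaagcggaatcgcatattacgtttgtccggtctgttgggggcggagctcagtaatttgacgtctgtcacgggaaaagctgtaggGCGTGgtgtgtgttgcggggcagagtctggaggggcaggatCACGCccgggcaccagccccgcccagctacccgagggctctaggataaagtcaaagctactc
Gstk1, chr4:72085364-72085663, plus strand: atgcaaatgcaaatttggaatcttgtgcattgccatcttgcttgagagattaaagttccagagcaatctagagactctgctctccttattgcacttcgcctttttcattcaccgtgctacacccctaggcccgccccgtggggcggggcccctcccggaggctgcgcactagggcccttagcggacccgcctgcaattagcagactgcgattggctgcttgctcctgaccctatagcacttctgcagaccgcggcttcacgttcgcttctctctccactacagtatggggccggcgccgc
The Gstm7 window holds 1 antioxidant core and the Gstm4 window 2 xenobiotic cores, 1 on each strand, and neither core was found in the Gstk1 window.

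Other members did not pass between durations. In control cortex Sult1d1 read 7.08 and 7.17 at 12 weeks, against 7.65 and 7.86 at 6 weeks (-0.63, SE 0.20, limma adjusted p = 0.0745), and Mgst2 5.69 and 5.56, against 5.87 and 6.32 (-0.47, SE 0.13, adjusted p = 0.0521). Without the second control array at 6 weeks, which stood apart, Mgst2 was at -0.24. Gstm6 was at 0.37 in control hippocampus (adjusted p = 0.106), or 0.22 without the second 12-week array, and at -0.34 in control cortex (adjusted p = 0.101). Gstp1 was at 0.52 in control hippocampus (SE 0.19, adjusted p = 0.175). Of the 79 serving genes, 1 was called in control hippocampus and 4 in control cortex (1.27% and 5.06%, against 4.27% and 8.85% of all clusters). Ggt7 was called higher at 12 weeks in both tissues of control rats, by 0.44 in hippocampus and 0.63 in cortex. In control cortex Gclm, the modifier subunit of the enzyme that limits glutathione synthesis, was higher by 0.31 and Ahr, the aryl hydrocarbon receptor, by 0.27, and Abcc3 was lower, with a difference of -0.25. On curcumin Arsb, Akr1a1, Esd and Hpgds were called lower and Abcc1 higher at 12 weeks in cortex (6.33%, against 3.24% of all clusters), and no gene of the lists in hippocampus.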

How the data were processed

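RNA of pooled hippocampus or cortex was hybridised to Affymetrix arrays. The deposited values are log2 intensities, which the authors obtained with Affymetrix Expression Console and RMA, as the submitters' processing notes name them, with versions not given in the sources used here. The study's methods name a rat exon array, but the cluster annotation is that of a gene array, and this was not settled here. Probe-level data were not used here. There were 27342 clusters, 16 arrays and 0 missing values.

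Group means of the 8 groups (tissue, diet, duration) were fitted on all 16 arrays with limma 3.58.1 in R 4.3.3 (lmFit, contrasts.fit, eBayes), leaving 8 residual degrees of freedom and a prior of 3.12. Benjamini-Hochberg adjustment covered every cluster, separately per comparison. The rule of the study (1.5 or 0.66) was applied to group means without a test. Steps were first checked on simulated data. Symbols came from the platform annotation, and all 49 members were found by gene ID in RefSeq (GRCr8). Promoters were searched in Python 3.11.15, and figures drawn with matplotlib 3.10.9.

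Named in full are members called in a comparison of curcumin with control or its interactions, members past the 1.5-fold rule, members called between tissues, the 10 with the highest mean, and 1 member of each class otherwise unnamed, with the called genes of the serving lists and a few others with large moderated t. Members called between durations, the members with an unadjusted p under 0.05, and Sult1a1, Gsta4 and Gstp1 were named after their values were seen. The members, lists and comparisons were chosen with earlier results of these data known.

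Both tissues came from the same rats, but whether equal numbers mark the same pool is not stated. Deviations of same-numbered arrays correlated at 0.12, 0.15, 0.16 and -0.15 between tissues and at -0.43 to 0.04 between diets, so the numbers were not taken as pairs, and a random block for the pool was an alternative. Alternatives were another threshold, quantile normalization, a filter on dim clusters, each array left out, the 8 arrays of a tissue, a variance trend, array weights, replicate and pool blocks, and other ways to choose clusters.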

Additional observations from a re-analysis of the deposited data

How the results depend on the processing

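With 2 arrays per group, counts of calls moved easily. The share of all clusters was not counted under the alternatives. The counts below therefore show how stable the calls were and are no result about these enzymes. Without one array at a time, members called ranged from 0 to 3 in cortex at 6 weeks, from 0 to 3 in cortex at 12 weeks and from 5 to 8 between tissues. They ranged from 0 to 1 for the effect at 12 minus 6 weeks in cortex. For 12 against 6 weeks they ranged from 0 to 3 in control hippocampus, 1 to 6 in control cortex, 0 to 2 in curcumin hippocampus and 0 to 2 in curcumin cortex. Members past 1.5-fold ranged from 0 to 4 in cortex at 6 weeks and from 0 to 4 at 12 weeks. The highest count of members called in cortex at 6 weeks came without the first control array (Aldh2, Mgst2 and Sult2b1). The only control array left there was the one that stood apart.

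In cortex at 12 weeks 1 member was called without dim clusters and with a variance trend, and 0 on the 8 cortical arrays alone. An adjusted p under 0.1 gave 1 member in cortex at 6 weeks, and 7, 3 and 2 for 12 against 6 weeks in control cortex, curcumin hippocampus and curcumin cortex. In control cortex the filter on dim clusters and array weights gave 5 each. In curcumin hippocampus quantile normalization and array weights gave 3 each, and in curcumin cortex quantile normalization gave 2 and the 8 cortical arrays 0. A rule of 1.3-fold gave 8 members in cortex at 6 weeks and 4 at 12 weeks, where a rule of 2-fold gave 0. A looser rule also admits more clusters of the whole array, and their share was not counted.

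The replicate number as a block gave 2 members for 12 against 6 weeks in curcumin hippocampus, where Gstm4 was added at an adjusted p of 0.0469. With it Aldh3a2 was no longer called (0.0565) and Mgst1 was (0.0474) in cortex at 12 weeks, and changed no other call of the members followed.

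Among the member differences given above, some turned sign without one array at a time. Sult1a1 in cortex at 6 weeks ranged from -1.05 to 0.21 (0.21 without the second control array). Gstk1 at 12 against 6 weeks in curcumin cortex ranged from -0.052 (without the first 6-week array) to 0.19 and was -0.01 without the second 12-week array. Signs also turned for Gstp1 and Aldh6a1 in cortex at 6 weeks (0.03 and 0.06 at the highest) and for Aldh2 in hippocampus at 12 weeks (0.13). Some differences not given above turned sign too. Of 868 single-gene values under the alternatives, 60 lost and 16 gained their call. The causes were not tested. Precision is limited by the number of arrays, and dim clusters give no bound on expression.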
